A study of Danio rerio with 3 samples.

Results

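A group of 5 genes of bone-resorbing cells was followed in cultured zebrafish scales, namely the enzyme genes acp5a, ctsk, mmp9 and mmp13a and the receptor gene csf1ra. Members were all probe sets whose annotation named 1 of these genes and no other, which gave 5 probe sets, 1 per gene, of 15502 probe sets that are not array controls. The 5 genes stand among 8793 with a probe set of their own. No probe set named a member together with a second gene, so none was set aside.

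Scales of zebrafish (Danio rerio) were collected under anaesthesia and kept in L-15 culture medium for 6 h at 15 °C. The groups were scales with 3-hydroxybenzo[c]phenanthrene (3-OHBcP) at 1 nM, scales with its parent compound benzo[c]phenanthrene (BcP) at 1 nM, and control scales, each with 1 Affymetrix Zebrafish Genome array. BcP is a polycyclic aromatic hydrocarbon, and 3-OHBcP carries a hydroxyl group on the same ring system. Strain, sex and age of the fish, the number of fish or scales behind a sample, and whether the control medium held a solvent are not given in the sources used here. With 1 array per group there is no spread between replicates, so every difference below describes a pair of arrays and carries no error, test or p-value, and the number of arrays limits the precision.

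Fish scales are thin bony plates that hold osteoblasts, which lay down bone matrix, and osteoclasts, which dissolve it. Osteoclasts arise from the same blood lineage as macrophages, and the receptor encoded by csf1r genes receives the growth signal that lets the precursors survive and divide. The mature cell seals off a patch of bone, acidifies it, and releases enzymes that digest the exposed collagen. The study's title asks how polycyclic aromatic hydrocarbons act on these 2 cell types.

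The arrays were close to each other as a whole. Pearson's r across all probe sets, which are not replicates of each other, was 0.998 between any pair of arrays. The deposited values had array medians of 5.35 (3-OHBcP), 5.37 (BcP) and 5.32 (control) on the log2 scale. Exact ties are common in these values, since 3497 probe sets, or 22.6%, were deposited with the same number on all 3 arrays. Some markers of scale tissue were bright. Epidermal keratin krt4 stood at 12.83 on every array, and the scale osteoblast genes col1a1a and col10a1a reached probe set means of 12.32 and 11.84. Others were not, as the osteoblast gene sp7 had a mean of 4.86. The median of all probe set means was reached by 9 of 12 osteoblast and 6 of 7 epidermis probe sets. The osteoclast marker list was represented by 3 of its 9 genes, acp5a, ctsk and tcirg1b, all in the upper part of the arrays.

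All 4 enzyme genes gave signal well above the array median and the receptor gene did not. The cysteine protease gene ctsk, which encodes cathepsin K, the main collagen-degrading enzyme of the osteoclast, had the highest placement, with log2 10.15 for 3-OHBcP, 10.15 for BcP and 10.15 for the control. Its rank from the top was 639, 634 and 648 among the 15502 probe sets in that order, or percentile 95.9, 95.9 and 95.8. The gelatinase gene mmp9, whose product cleaves denatured collagen, read 9.74 with 3-OHBcP, 9.94 with BcP and 9.84 in the control, at percentiles 94.8, 95.5 and 95.1. These were the highest placements among the members on each array.

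The collagenase gene mmp13a, whose product cuts intact fibrillar collagen, read 7.46 with 3-OHBcP, 7.58 with BcP and 7.51 in the control, at percentiles 79.2, 80.4 and 79.4. The gene acp5a encodes tartrate-resistant acid phosphatase, the enzyme commonly used to stain osteoclasts. It read 7.14 with 3-OHBcP, 7.25 with BcP and 7.13 in the control, at percentiles 75.4, 76.6 and 74.6. For both genes the BcP array gave the highest reading of the 3. The receptor gene csf1ra, which osteoclast precursors and macrophages use and which yellow pigment cells of zebrafish also need, read 4.47 on all 3 arrays, at percentiles 35.6, 35.5 and 36.6.

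**Figure D1:**
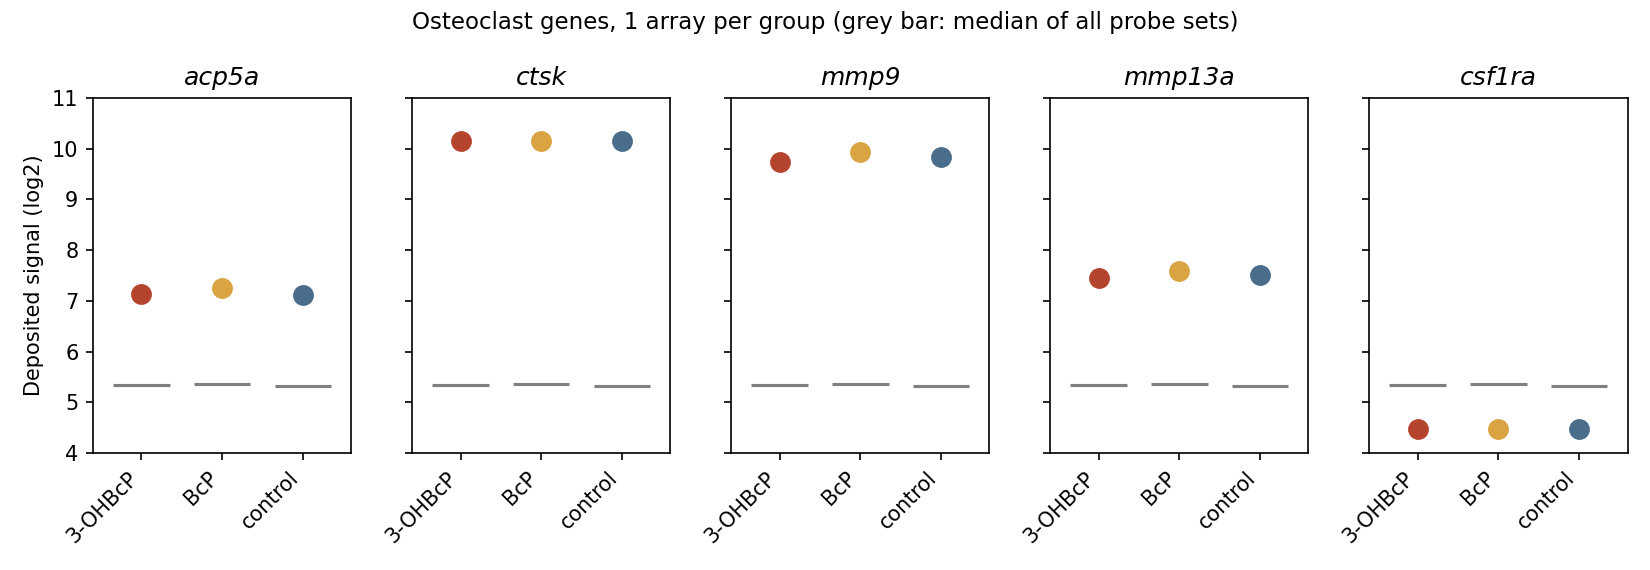
Deposited log2 signal (vertical axis) of the 5 genes on the 3-OHBcP, BcP and control arrays, 1 point per array, with a grey bar at the median of all probe sets on that array. The 4 enzyme genes sit above the bars at every array, csf1ra sits below them at 4.47, and within each gene the 3 points differ by at most 0.20.

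Percentiles place a probe set on its own array. Probe sets bind their targets with different strength, so the order of ctsk, mmp9, mmp13a, acp5a and csf1ra is not an order of transcript amounts. The files used here hold no detection call, and whether the csf1ra signal lies above the background of the array is not known. In whole scales, fewer cells of a type and less RNA per cell cannot be told apart. In addition mmp9 and mmp13a are known from leukocytes and injured epidermis, and acp5a from macrophages, so these signals need not come from osteoclasts alone. Which cells gave the signal was not tested for any member, ctsk included.

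With 3-OHBcP the members stayed near the control array and had no common direction. Of the 5 probe sets, 1 was higher, 2 were lower and 2 were equal, with a median log2 difference of 0. Over all probe sets 35.9% were higher, 28.3% lower and 35.8% equal, also with a median of 0. The gelatinase gene mmp9 was farthest from the control, 1.07-fold lower at log2 9.74 with 3-OHBcP against 9.84 in the control (difference -0.098). A difference of at least this size, in either direction, was found for 32.02% of all probe sets. The collagenase gene mmp13a differed by -0.053 and acp5a by 0.012, or by -0.016 when arrays were centred on their medians. No member was 1.5-fold apart, as was true of nearly all probe sets, of which 0.206% were past that fold in either direction.

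With BcP the 3 enzyme genes that were not tied lay above the control. Of the 5 probe sets 3 were higher and 2 equal, with a median log2 difference of 0.070, where all probe sets were 43.3% higher, 26.1% lower and 30.6% equal with a median of 0. The phosphatase gene acp5a was farthest, 1.09-fold higher at 7.25 with BcP against 7.13 in the control (difference 0.13). Differences of that size or more were found for 28.9% of all probe sets. For mmp9 the difference was 0.10 and for mmp13a 0.070. Centring every array on its own median made the median over members 0.024, and the single differences kept their sign at 0.083 for acp5a, 0.054 for mmp9 and 0.024 for mmp13a, while ctsk and csf1ra became -0.046 each, so that 3 were higher and 2 lower. No member was 1.5-fold apart, against 0.510% of all probe sets.

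The compounds were matched in dose and time, and 3-OHBcP gave lower readings than BcP for mmp9, mmp13a and acp5a. The hydroxylated compound's array read 9.74 for mmp9 against 9.94 on the BcP array, which is 1.15-fold lower (difference -0.20). This was the widest gap of any member in the 3 comparisons, and 9.99% of all probe sets differed by as much or more in either direction. The gene mmp13a was 1.09-fold lower (-0.12) and acp5a 1.08-fold lower (-0.12), while ctsk and csf1ra were equal. The median over the members was -0.12, or -0.058 without mmp13a, whose probe set may match several transcripts, and the median over all probe sets was 0. Lower readings were also the commoner direction over the whole array, at 37.2% of probe sets against 26.2% higher. No member was 1.5-fold apart, against 0.458% of all probe sets. A single array per compound allows no interval for the gap, so neither a difference between the compounds nor likeness between them is shown. The 3 comparisons share arrays, so they are not independent of each other.

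**Figure D2:**
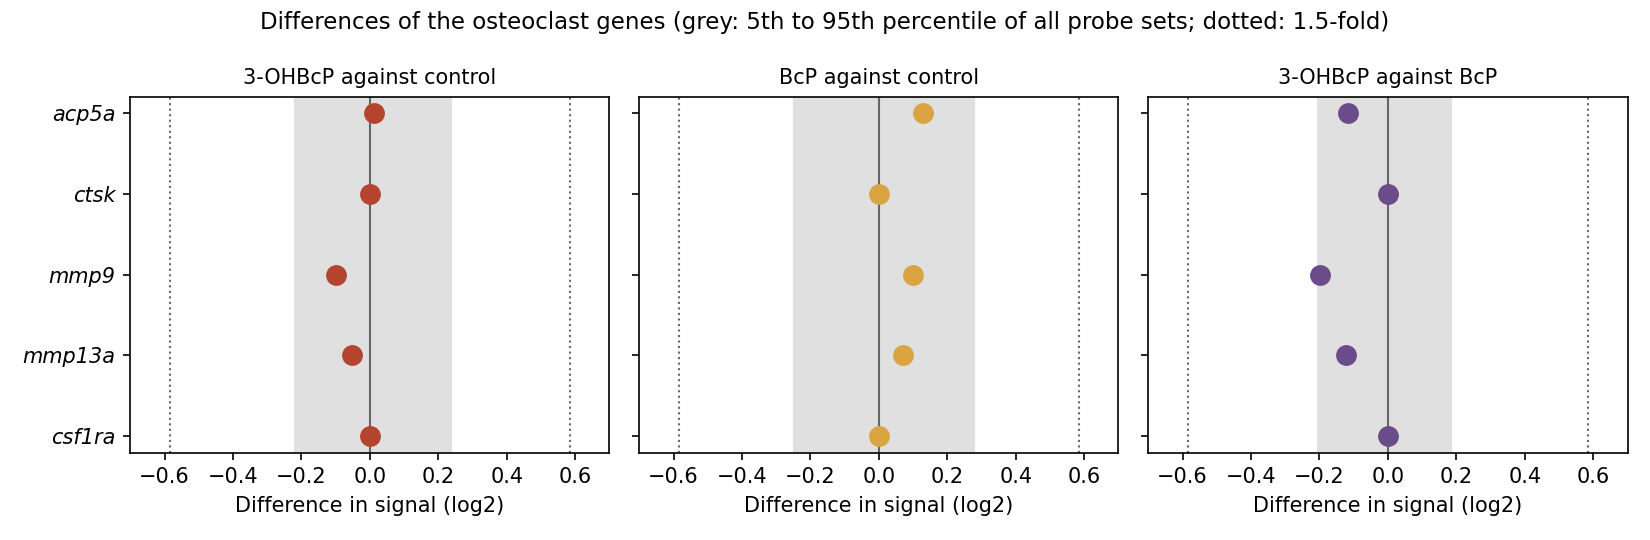
Log2 difference (horizontal axis) of each of the 5 genes in the 3 comparisons, with a grey band from the 5th to the 95th percentile of all probe sets and dotted lines at 1.5-fold. Every point lies inside its grey band, and mmp9 between the compounds, at -0.20, lies closest to a band edge (-0.21).

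How wide the 3 readings of a gene spread was set beside probe sets of like signal, those whose mean over the arrays lay within 0.5 log2 units. The 3 readings of mmp9 spanned 0.20, where the 472 probe sets around it had a median span of 0.10, and 28.2% of them spanned as much or more. For acp5a the span was 0.13 among 1864 probe sets with a median of 0.093, and 39.5% of them spanned as much. For mmp13a it was 0.12 among 1713 probe sets with a median of 0.089, and 39.6% spanned as much. These shares describe genes on 3 arrays and do not stand in for replicate error.

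The tie of ctsk is likewise one of many. Of the 405 probe sets near its level, 14.6% were deposited with 1 value on all 3 arrays, and near csf1ra the share was 21.7% of 2530. A difference of exactly 0 in these files is therefore common, and it does not measure stable expression precisely. Quantile normalization, which breaks such ties, gave csf1ra -0.065 with 3-OHBcP and -0.074 with BcP against the control, and ctsk stayed within 0.05 of 0 under every alternative.

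The genes whose pattern came closest to a member's were found by the distance between their pairs of log2 differences from control, among 5244 other genes with a mean signal at or above the array median. For mmp9 these were myo1eb (-0.099 with 3-OHBcP, 0.11 with BcP) and tars1 (-0.097, 0.11). For mmp13a they were ddrgk1 (-0.056, 0.068) and agpat4 (-0.050, 0.068), and for acp5a ndufab1a (0.011, 0.13) and st3gal3a (0.017, 0.13). With 3 arrays such closeness is easy to reach, and 63 genes lay within 0.02 of acp5a, 39 of mmp13a and 13 of mmp9. For ctsk and csf1ra 1078 genes tied at distance 0, and none is named.

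Other genes of osteoclast formation and function had medians near 0, with single probe sets farther from the control than any member. Of 57 listed genes 31 had a probe set of their own, in 44 probe sets, and many defining ones, such as tnfrsf11a, tnfsf11, nfatc1, dcstamp, acp5b and csf1rb, were not analysed here. With 3-OHBcP 12 of the 44 were higher, 22 lower and 10 equal, with a median of -0.003. With BcP 16 were higher, 20 lower and 8 equal, with a median of 0. Between the compounds 12 were higher with 3-OHBcP, 19 lower and 13 equal, again with a median of 0. The shares over all probe sets, as higher, lower and equal, were 35.9%, 28.3% and 35.8% with 3-OHBcP against the control. They were 43.3%, 26.1% and 30.6% with BcP against the control, and 26.2%, 37.2% and 36.7% between the compounds. None of the 44 was 1.5-fold apart from the control with either compound, beside the 0.206% and 0.510% given above. Outside the range from the 5th to the 95th percentile of all probe sets lay 5 of the 44 with 3-OHBcP against the control, 7 with BcP against the control and 5 between the compounds. By construction 10.01% of all probe sets lie there, against 11.4%, 15.9% and 11.4% of the pathway probe sets, and 0 of the 5 members in each comparison.

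By role, the growth factor gene csf1b, a ligand of the csf1r receptors and the single ligand measured, read 7.26 with 3-OHBcP, 7.24 with BcP and 7.34 in the control. Among transcription factors, 1 probe set of spi1b, the PU.1 gene that directs cells into the myeloid lineage, was the 1 pathway probe set of 44 at least 1.5-fold apart, between the compounds, a comparison in which 0.458% of all probe sets were past that fold. It read 5.10 with 3-OHBcP, 5.72 with BcP and 5.45 in the control, a difference of -0.63 between the compounds. With 32 added to the linear values, or with its probe sets averaged, it was no longer 1.5-fold apart. The other spi1b probe set, at 6.81 with 3-OHBcP, 6.81 with BcP and 6.83 in the control, did not share that gap. The AP-1 gene fosab had the highest signal of that role, at 12.42, 12.51 and 12.41 on the 3-OHBcP, BcP and control arrays. A pair of other fosab probe sets lay above the control by 0.48 and 0.45 with 3-OHBcP and by 0.35 and 0.47 with BcP. The remaining fosab probe set was tied with the control with 3-OHBcP and lay 0.018 above it with BcP. The probe sets of this gene thus differ in the size of the gap, and none lay below the control.

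In acid secretion, the proton pump subunit gene atp6v1e1b read 9.03 with 3-OHBcP, 9.18 with BcP and 9.03 in the control. The 13 probe sets of that role had medians of 0 in all 3 comparisons. In the fusion role the tetraspanin gene cd81a read 10.03, 10.07 and 10.22 on the 3-OHBcP, BcP and control arrays for its brightest probe set. That probe set carries the same cluster number as a probe set of the epithelial gene epcam, and which transcript it measures was not tested. Another cd81a probe set with that cluster number read 5.25, 5.49 and 5.13 in that order, above the control with both compounds. The remaining cd81a probe set read 6.01, 6.02 and 6.01, so the probe sets of this gene disagree.

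Among the other resorption enzymes 8 of 9 probe sets were lower and 1 higher with 3-OHBcP, with a median of -0.071. With BcP 6 were lower and 3 higher, with a median of -0.019. Over all probe sets 28.3% were lower with 3-OHBcP and 26.1% with BcP. The 9 probe sets are of 7 genes on single arrays, and a common direction among them was not tested. The lysosomal protease gene ctsba, the brightest, read 9.98 with 3-OHBcP, 10.01 with BcP and 10.18 in the control. The membrane collagenase gene mmp14a, picked after its values were seen, read 8.67 with 3-OHBcP, 8.29 with BcP and 8.74 in the control on 1 probe set. Its second probe set read 7.16, 7.16 and 7.12 in that order. Of the inhibitors, the metalloprotease inhibitor gene timp2a was tied at 9.03 on all arrays. Its relative timp2b, also picked after its values were seen, read 7.32 with 3-OHBcP, 7.26 with BcP and 7.79 in the control (-0.47 and -0.54), farther from the control than any member.

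**Figure D3:**
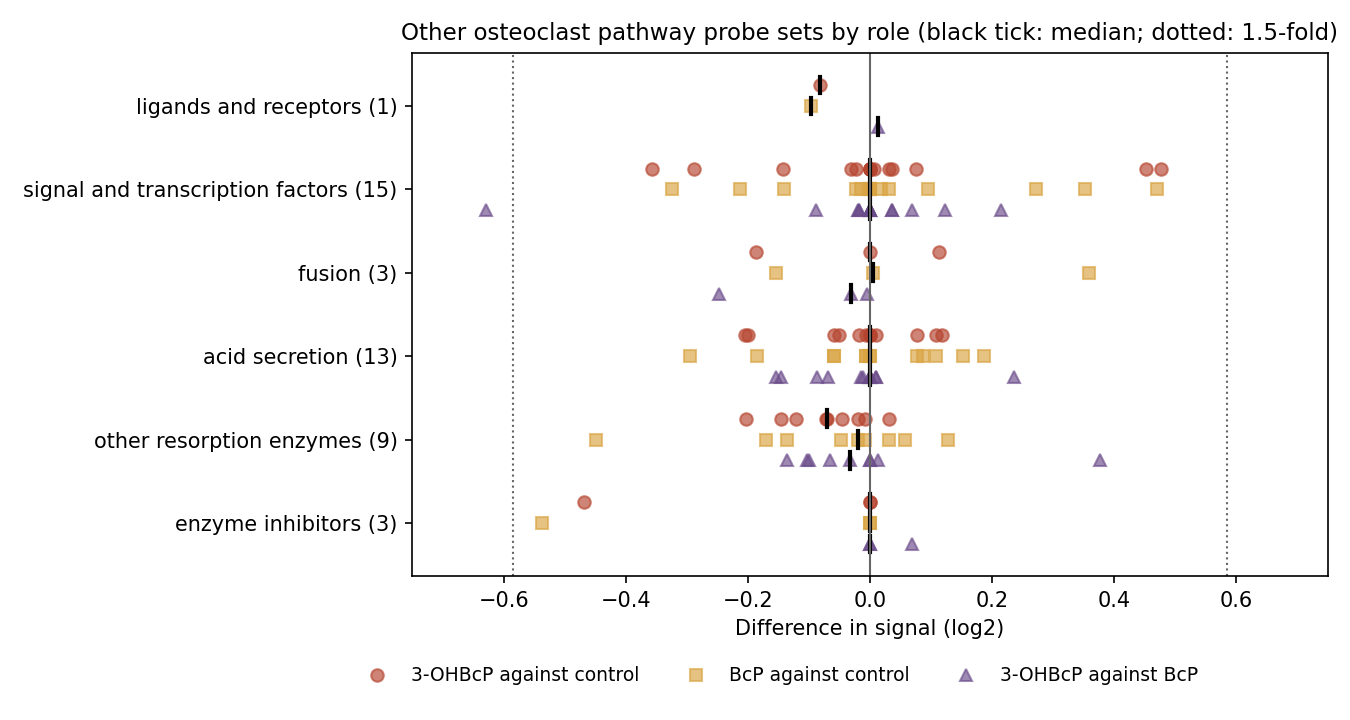
Log2 differences (horizontal axis) of the 44 other osteoclast pathway probe sets by role, with the number of probe sets in brackets, 1 symbol per probe set and comparison, black ticks at the medians and dotted lines at 1.5-fold. The medians lie between -0.10 and 0.01, and a single point, spi1b between the compounds at -0.63, passes a dotted line.

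Some leukocyte markers had the order that mmp9 and mmp13a showed, in which BcP read above the control and the control above 3-OHBcP. This order was picked out after the values were seen, and 6.40% of all probe sets had it, so nothing is read from its count of 2 among the 5 members. It was not limited to leukocyte markers. Of the 44 pathway probe sets 3 had it, 1 each of spi1b and the resorption enzyme genes mmp2 and acp2. In the pan-leukocyte list, with 5 of 5 genes measured in 7 probe sets, 3 probe sets had the same order. They were 1 each of coro1a, ptprc and spi1b, and the brighter spi1b probe set lay below the control with both compounds (-0.022 each). The summed linear signal of that list was 2234 with 3-OHBcP, 2542 with BcP and 2334 in the control. Its brightest probe set, of coro1a, weighs most in that sum, so the sum does not stand for the whole list. The common leukocyte gene ptprc (CD45) read 7.98 with 3-OHBcP, 8.28 with BcP and 8.22 in the control. The brighter coro1a probe set, for an actin-binding protein of leukocytes, read 9.35, 9.75 and 9.50 in that order. Its dimmer probe set, at 7.65, 7.63 and 7.57, lay above the control with both compounds and was highest with 3-OHBcP. The actin-bundling gene lcp1 read 8.49 with 3-OHBcP, 8.50 with BcP and 8.43 in the control, and the lysosomal membrane gene laptm5 read 9.28, 9.33 and 9.28, so neither lay below the control with 3-OHBcP. Osteoclasts belong to the blood lineage and share genes such as ptprc and spi1b with this list.

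In the neutrophil list 2 of 5 genes were measured, in 5 probe sets, and 1 of these had the order of mmp9 and mmp13a. The summed linear signal was 262 with 3-OHBcP, 376 with BcP and 281 in the control. The brightest probe set of mpx, the neutrophil myeloperoxidase gene, weighs most in that sum. It read 6.91 with 3-OHBcP, 7.75 with BcP and 7.26 in the control. The second brightest mpx probe set read 6.45, 6.64 and 6.18, so these 2 probe sets placed 3-OHBcP on opposite sides of the control. The lysozyme gene lyz read 5.27, 5.50 and 5.27. Of 11 macrophage markers 5 were measured, in 5 probe sets, and 0 of these had that order. The list includes the member csf1ra, whose tie on all arrays could not give it. Their summed linear signal, most of it from the antigen presentation gene cd74a, was 10346 with 3-OHBcP, 10430 with BcP and 10420 in the control. That order in the sum, at a far smaller spread, does not stand for the list. With BcP only cd74a lay above the control, 3 probe sets lay below it, and csf1ra was tied. The scavenger receptor gene marco read 6.07, 6.19 and 6.38 on the 3-OHBcP, BcP and control arrays. The part of these cells in the readings of mmp9 and mmp13a was not tested.

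**Figure D4:**
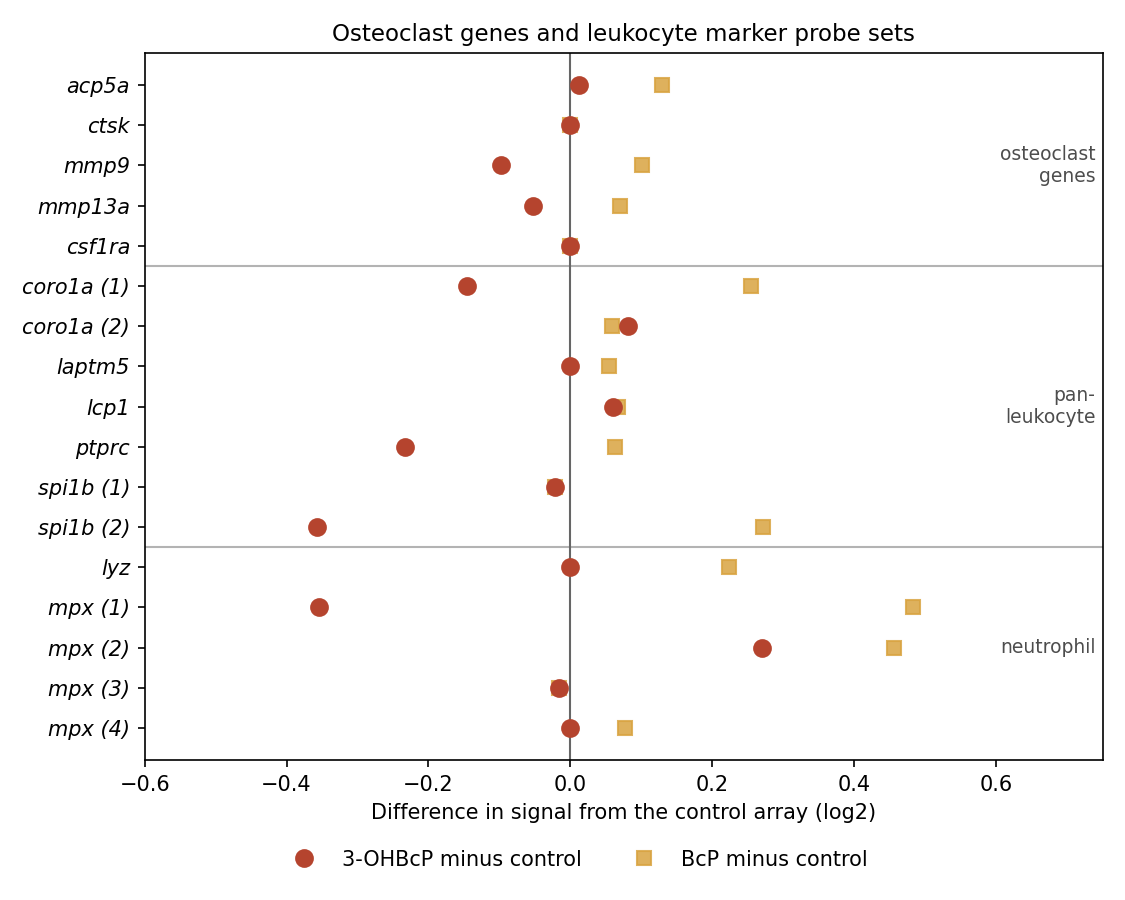
Log2 difference from the control array (horizontal axis) with 3-OHBcP (circles) and with BcP (squares) for the 5 osteoclast genes, 7 pan-leukocyte and 5 neutrophil probe sets, where a number in brackets tells probe sets of 1 gene apart from bright to dim. Both compounds are set against the same control array, and mmp9, mmp13a, coro1a (1), ptprc, spi1b (2) and mpx (1) have the circle left of 0 and the square right of it. The macrophage list of 5 probe sets is not drawn apart from csf1ra, and 0 of the 5 had this pattern.

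For csf1ra the cells of interest also include xanthophores, the yellow pigment cells. Of 6 xanthophore markers 4 were measured, in 9 probe sets with means between 3.12 and 6.10. Only 2 of the 9, both for scarb1, reached the median of the arrays. Their summed linear signal was 232 with 3-OHBcP, 231 with BcP and 207 in the control, while csf1ra itself was tied. Most of each xanthophore sum came from scarb1, so the sum does not stand for the whole list. The osteoblast markers summed to 23863 with 3-OHBcP, 22751 with BcP and 18061 in the control, mostly from collagen I genes, where the osteoclast markers summed to 1436, 1458 and 1435. Of each osteoclast sum 1138 came from the tied value of ctsk, so that sum says little about the other osteoclast markers. The osteoblast and osteoclast sums add 12 and 3 probe sets of unlike binding strength, so they are not amounts of cells or transcripts. The osteoblast and osteoclast lists were not tested against each other.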

How the data were processed

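In the table that the authors deposited, each probe set has a single value per array, read here as log2 signal because of its range, as the file's header gives no scale. The submitters' processing notes name Affymetrix Expression Console, and its version, algorithm and background correction are not given in the sources used here. No further scaling was applied. Of 15617 probe sets, 115 array controls were left out. The platform annotation gave 1 symbol to 10795 of the rest, several to 135 and none to 4572, and 10711 of the 10795 were found by gene identifier in a RefSeq table of GRCz12tu, used for names alone. Log2 values were subtracted and counted at 1.5-fold (Python 3.11.15, pandas 2.3.3). The counting step was tested on simulated data with planted differences past that fold and little noise, which says nothing of replicate error. The genes named are all members, pathway genes at least 1.5-fold apart, the brightest gene of each role and the nearest patterns. Markers of cell types named with values, and genes said so in the text, were picked after their values were seen. The alternatives were centring, quantile normalization, an offset of 32 on the linear scale, level filters, leaving out probe sets that can match several transcripts, averaging probe sets of a gene, and removal of the trend with level (statsmodels 0.14.6). The members and lists were chosen with earlier results of these data known.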

Additional observations from a re-analysis of the deposited data

How the results depend on the processing

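Over 7 alternatives, and 1 chosen after seeing the data (removal of the trend with level), no member difference reached 1.5-fold among 111 recomputed. Many of these repeat the main value by construction, since level filters, leaving out probe sets and averaging cannot alter a member's single difference. Of the differences that were not 0, a single one changed sign, that of acp5a with 3-OHBcP against the control, which was 0.012 and became -0.016 when arrays were centred on their medians. It became 0.063 after quantile normalization. The tied genes ctsk and csf1ra were given values other than 0 in 18 cases, among them -0.046 each with BcP against the control under centring. The members' median between the compounds was -0.058, in place of -0.12, when probe sets that can match several transcripts, mmp13a among them, were left out. It ranged from -0.028 to 0 with 3-OHBcP against the control and from 0.024 to 0.093 with BcP against the control. The count of pathway probe sets at least 1.5-fold apart between the compounds was 1, for spi1b. That count became 0 with 32 added to the linear value, with a 75th percentile level filter, and with probe sets averaged by gene. The filter left the spi1b probe set out, and averaging joined it with the other spi1b probe set, which was tied between the compounds. Each member gene has 1 probe set, so averaging left the members as they were. No paired analysis was possible because each group has 1 array, and for the same reason no replicate could be left out. Signal over background is not known, which limits csf1ra most.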
